A study of Mus musculus with 78 samples.

Results

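The genes described here are 6 connexins (Gja1, Gja10, Gjb2, Gjb6, Gjc1 and Gjd2) and 2 pannexins (Panx1 and Panx2), 8 of the 19301 genes named on the arrays, chosen as the probe sets whose only gene symbol is one of these names. Connexins are membrane proteins that assemble into hemichannels, and hemichannels of neighbouring cells dock to form gap junctions, the pores of electrical synapses. In the retina, gap junctions couple horizontal cells into a network, link AII amacrine cells to each other and to ON cone bipolar cells, and join cones and many ganglion cells. Pannexins are related large-pore proteins that form channels in 1 membrane and let ATP out of the cell rather than docking with a partner.

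Cells of adult mouse retina were sorted by fluorescence, 200 cells per sample after a dissociation with a process time of 15 min, from 22 transgenic lines, and their RNA was hybridized to 78 arrays in 26 sets of 3 biological replicates. The lines fall into 6 classes by their labelled cell type: 3 photoreceptor lines (15 arrays), 1 horizontal line (3 arrays), 4 bipolar lines (12 arrays), 9 amacrine lines (33 arrays), 4 ganglion lines (12 arrays) and 1 microglia line (3 arrays). All samples share a genetic background labelled as mixed, of C57BL/6J with an FVB/N-Swiss Webster hybrid. Mice from the resource centre carried a recessive photoreceptor degeneration mutation before they were backcrossed, and the labels do not say which samples kept it.

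Lines with a Cre driver, other than PV, carried the reporter allele Rosa26-LSL-RFP, which Cre switches on, and the rest carried EGFP under the driver itself. The Cre drivers were b2-Cre (rods, 3 sets, named b2 1st, b2 2nd and b2 single here), d4-Cre (cones), B6Cf1-Tg(Gja10-Cre, #14)BR (horizontal cells), B6Cf1-Tg(mGlur6-Cre)BR (ON bipolar cells), B6Cf1-Tg(Kcng4-CreERT2, #)BR (bipolar cells), Tg(Crh-Cre)282Gsat/Mmnc (amacrine cells), 129S6-Chat_tm1(cre)Lowl/J (starburst amacrine cells), C57BL/6-Tg(Grik4-Cre)G32-4Stuj (ganglion cells) and mOpn4-Cre1D4 (melanopsin ganglion cells). The EGFP lines were Tg(Chrnb4-EGFP)1Gsat (cones), B6:FVB-Tg(Pcp2-EGFP)2Yuza (rod bipolar cells), Tg(Lhx4-EGFP)199Gsat (bipolar cells), Tg(Drd4-EGFP)W18Gsat/Mmnc (ganglion cells) and Tg(Csf2rb2-EGFP)334Gsat (microglia). EGFP lines for amacrine cells were Tg(Arc-EGFP)194Gsat/Mmcd (3 sets), Tg(Igfbp2-EGFP)17Gsat, Tg(Rgs5-EGFP)24Gsat, Tg(Chrna3-EGFP)BZ135Gsat/Mmnc, Tg(6430514L14Rik-EGFP)95Gsat (the Fam81a line), Tg(Fbxo32-EGFP)138Gsat/Mmcd and Tg(Ier5-EGFP)267Gsat. The PV ganglion line was 129SVCB6(PV-CRE#32)SA-09 crossed to ThyStopY. Each reporter marks the cells in which its driver was active, so a line may hold more than 1 subtype, and the Drd4 line carries a green reporter by its construct but is labelled with the red dye. Lines are called by their driver below.

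Values are intensities on a linear scale, and a set mean is the geometric mean of its 3 arrays. Testing was limited to genes with a set mean above 9.01, the median of all values, in 1 or more sets. This filter let through 15102 genes, 6 of these 8 among them. Values at or below a floor of 3.99 carry no order. Differences are on the log2 scale and a gene was called at an adjusted p below 0.05 (limma, Benjamini-Hochberg over all genes tested in that comparison) with a difference of at least 1. Nothing in the labels says that biological replicates came from separate animals, so p-values of fits on arrays measure the spread between these samples. Those of class comparisons, made on line means, measure the spread between lines of a class. A lower intensity in sorted cells can come from fewer cells with the transcript or from less of it per cell, which cannot be told apart. The median correlation between arrays within a set was 0.93, and the lowest was 0.71, in Crh. The Crh, Chrna3 and Drd4 lines had a lowest correlation below 0.8. Single arrays stand apart below in other sets as well.

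The rod, horizontal, starburst, ganglion and microglia marker lists each summed highest in a line labelled as that cell type. The rod list summed to 6163 to 6762 in the 3 b2 sets, the horizontal list to 2856 in the Gja10 line, the starburst list to 1651 in the ChAT line, the ganglion list to 2067 to 2392 in the 4 ganglion lines and the microglia list to 5997 in the Csf2rb2 line. The rod list also summed to 2524 in Chrnb4 and 2525 in d4, the cone lines, nearly all of it from Sag. Gnat1 was 25.4 in Chrnb4 and below the floor in d4, against 1665 to 2313 in the b2 sets. Cnga1 was 5.12 in Chrnb4 and below the floor in d4, against 753 to 855. Nrl was 12.1 and 11.3, against 105 to 121. Gnat1 was also 840 in Crh, an amacrine line, 173 in Drd4, 138 in Lhx4 and 108 in Csf2rb2. The part of rods in the values of these lines and of the cone lines was not tested.

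Of the 8 genes, Gja10 was the one with a signal above the filter in a lone set, its own driver line. Gjd2 and Panx2 were widespread, above the filter in 24 and 26 of the 26 sets. Gjc1 passed it in 20 sets, Panx1 in 17 and Gja1 in 12. Gjb2 and Gjb6 passed it in none and were not tested.

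Gja10 encodes connexin57, the connexin of horizontal cell dendrites. On the arrays of the Gja10 line its intensity was 47.3, 47.1 and 51.0, with a set mean of 48.4 (SD 0.07 on the log2 scale, n = 3). The means of the other 21 lines ran between 4.06 in Opn4 and 6.39 in Lhx4, and the highest array outside the line was 10.1, in b2 2nd. Every array of the horizontal line thus lay above every other array of the series. Cells of this line were selected by a Gja10-Cre transgene, and Gja10 passed the filter in this line alone, so its difference from other lines is given as a description, with no test. On line means the horizontal class was 3.29 above the mean of the other 5 classes, in a comparison with 1.05% of genes called higher. On arrays the line was 3.31 above the mean of the other 21 lines, in a comparison with 4.22% of genes called. The other lines lay below the filter and 10 of their arrays at or below the floor. With values raised to the floor the differences were 3.27 and 3.29. The other 5 classes were each 0.58 to 0.77 lower than a mean that includes the horizontal line, which is under the threshold of 1.

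**Figure D1:**
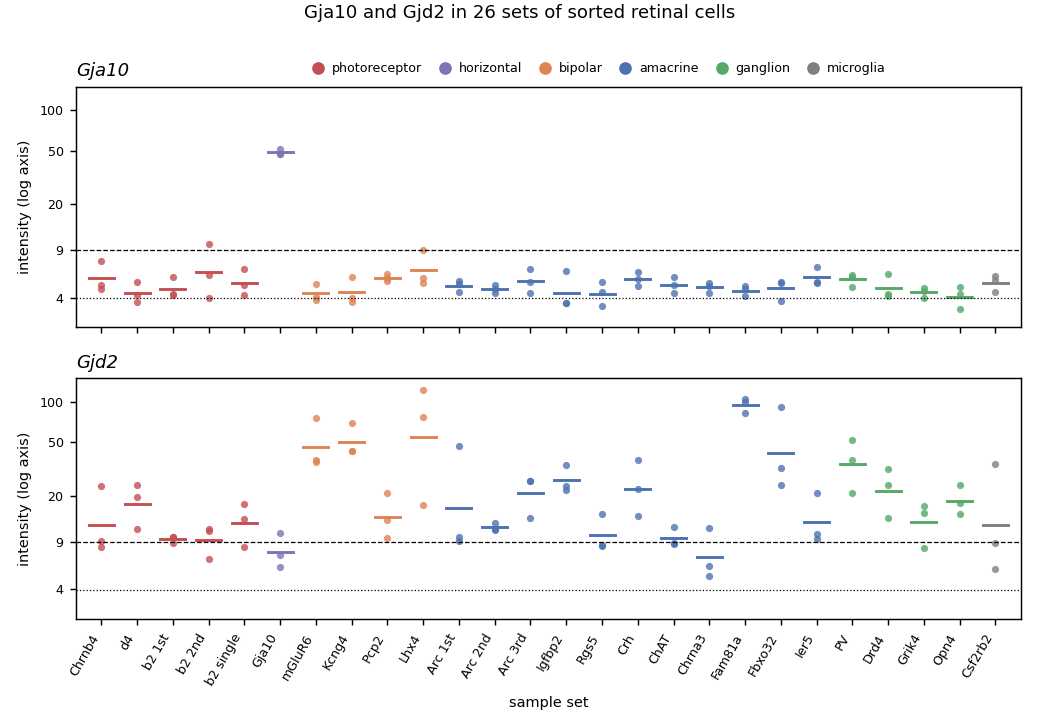
Intensity of Gja10 (top) and Gjd2 (bottom) on each array (points, log axis) and the geometric mean of each set (bars), for the 26 sets coloured by class. The dashed line is the filter at 9.01 and the dotted line the floor at 3.99. Gja10 stands at 47.1 to 51.0 in its own line, above every other array, whereas Gjd2 is spread over classes, highest in Fam81a at 82.8 to 106.

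Stretches around the annotated starts of Gja10 and of 2 members found in other patterns differ in their content of the dinucleotide CG. Capitals mark it (it reads the same on both strands). They are shown because Gja10 was measured in a lone class, Gjd2 in nearly all sets and Panx1 in a graded order. Each stretch holds 300 bases, 250 before and 50 after the gene's start, 5′ to 3′ on the gene's strand, from RefSeq on GRCm38.p6, which matched 6 of the 8 genes. The arrays were annotated on another build, so these positions are used for the sequences alone.
Gja10, chr4:32602333-32602632, minus strand: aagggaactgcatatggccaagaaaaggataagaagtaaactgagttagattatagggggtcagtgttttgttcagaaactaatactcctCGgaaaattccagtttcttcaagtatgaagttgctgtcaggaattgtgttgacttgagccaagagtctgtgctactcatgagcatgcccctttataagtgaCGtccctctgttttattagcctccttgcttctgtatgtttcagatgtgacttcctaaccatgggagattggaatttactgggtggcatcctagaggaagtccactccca
Gjd2, chr2:114013570-114013869, minus strand: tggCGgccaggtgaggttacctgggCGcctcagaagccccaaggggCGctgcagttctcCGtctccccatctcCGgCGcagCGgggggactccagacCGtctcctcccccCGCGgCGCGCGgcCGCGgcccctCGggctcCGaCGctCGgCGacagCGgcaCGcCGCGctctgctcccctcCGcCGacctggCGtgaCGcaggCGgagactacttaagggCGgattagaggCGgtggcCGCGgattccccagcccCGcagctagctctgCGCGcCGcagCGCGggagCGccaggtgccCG
Panx1, chr9:15045429-15045728, minus strand: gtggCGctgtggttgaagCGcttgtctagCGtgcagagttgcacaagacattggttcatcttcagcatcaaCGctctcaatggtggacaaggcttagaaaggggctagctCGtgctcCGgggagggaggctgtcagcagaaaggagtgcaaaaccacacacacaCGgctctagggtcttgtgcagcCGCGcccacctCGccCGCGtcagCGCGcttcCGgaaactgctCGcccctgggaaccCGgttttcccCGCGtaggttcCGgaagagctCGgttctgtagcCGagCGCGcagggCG
The Gja10 stretch holds 2 CG dinucleotides, where the median is 7 over 32851 promoter stretches of the same length, of which 94.6% hold at least 1. Its bases after the start open with the codon ATG, so the annotated start may be that of translation. Whether the bases before it are a promoter was not tested, so its count may not be of a like stretch. The Gjd2 promoter holds 41, more than 96.5% of promoters, and the Panx1 promoter 25, more than 81.6%. Among the remaining matched genes the count was 8 in Gja1, 27 in Gjb2 and 6 in Gjb6. Gjb2, below the filter in all 26 sets, thus has more CG in this window than Panx1, which passed it in 17.

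Gjd2 encodes connexin36, the main connexin of neurons and the channel of AII amacrine, cone and many bipolar cell junctions. Its intensity was 106, 82.8 and 99.8 in Fam81a, an amacrine line, with a set mean of 95.6 (SD 0.18, n = 3), and the other 8 amacrine lines had means of 7.01 to 41.5. Fam81a lay 2.62 above the mean of those 8 lines (SE 0.41, adjusted p = 1.9e-05), and every Fam81a array lay above all arrays of 23 of the other 25 sets. The exceptions were Fbxo32 and Lhx4, each with 1 array in or above the Fam81a range. In this comparison 1.52% of all genes tested were called. Within batch 1 alone, against ChAT, Ier5 and the earliest Arc set, the difference was 2.93 (SE 0.45, adjusted p = 1.5e-05).

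Fbxo32 was next among amacrine lines, with 91.5, 32.2 and 24.2 and a mean of 41.5 (SD 1.01). Its difference from the other amacrine lines was 1.27 (SE 0.41) and did not pass the test (adjusted p = 0.15). Its replicate 1 lay inside the range of Fam81a and its other arrays were near those of Igfbp2, which had 33.8, 22.0 and 23.7. The AII amacrine marker list (Dab1, Slc6a9, Nfia, Prox1 and Calb2) summed to 321 in Fam81a with 4 of 5 genes above the filter and to 379 in Fbxo32 with 5 of 5. It also summed to 303 in Ier5, where Gjd2 averaged 12.7, and to 1363 in Drd4, where Calb2 alone gave 1280. The part of AII cells in the Gjd2 values was not tested.

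At the low end of the amacrine class stood Chrna3, where Gjd2 had 5.96, 5.07 and 11.4 and a mean of 7.01 (SD 0.62), against means of 9.67 to 95.6 in the other 8 lines. The difference was -1.62 (SE 0.41, adjusted p = 0.0040), and -1.42 without replicate 2 (adjusted p = 0.10). In the Chrna3 comparison 7.87% of genes were called. Chrna3 is the only amacrine line labelled batch 2, and with batch as a term the difference was -1.12 (adjusted p = 0.22). Fits with batch took Arc 2nd, which has no batch label, as batch 2 from its number. Starburst cells (ChAT) had 8.87, 11.7 and 8.68 and a difference of -1.10 that did not pass the test (SE 0.41, adjusted p = 0.14).

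Bipolar lines divided into 3 with high Gjd2 and 1 with low Gjd2. Lhx4 had 77.3, 123 and 17.0, Kcng4 43.2, 70.0 and 43.0, and mGluR6 35.8, 36.7 and 75.8. Pcp2, the rod bipolar line, had 20.9, 9.73 and 13.3. The 3 arrays of Pcp2 lay below every array of Kcng4 and mGluR6, but replicate 3 of Lhx4, at 17.0, fell inside the Pcp2 range. Pcp2 averaged 13.9, against 50.4 for the mean of the other 3 lines, a difference of -1.86 (SE 0.45, adjusted p = 0.0082), and 2.85% of genes were called in that comparison. Rod bipolar markers summed to 1902 in Pcp2 and 1947 in mGluR6, and cone bipolar markers to 645 in Pcp2, 977 in mGluR6, 1357 in Kcng4 and 1933 in Lhx4. Pcp2 is the only bipolar line of batch 1, and with batch as a term the difference was -1.52 (adjusted p = 0.47). Without replicate 2 it was -1.38 (adjusted p = 0.34). Rod bipolar cells are known to signal to AII amacrine cells by chemical synapses, while ON cone bipolar cells are coupled to them. The part of bipolar cell type in the Gjd2 values was not tested.

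As a class, bipolar lines averaged 36.5 (SD 0.93 between lines, n = 4), against 13.6 for the mean of the other 5 classes, a difference of 1.42 that did not pass the test (SE 0.54, adjusted p = 0.15). The Gja10 horizontal line had 5.88, 7.24 and 10.5. On arrays it differed by -1.40 from the mean of the other 21 lines (SE 0.40, adjusted p = 0.017). On line means the horizontal class differed from the other 5 classes by -1.28 and did not pass the test (SE 0.93, adjusted p = 0.95). The line overlapped Chrna3 and several other lines. Its difference on arrays did not pass the test without replicate 1 or without replicate 2 (-1.14 and -1.37, adjusted p = 0.19 and 0.26).

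In photoreceptors Gjd2 is known from cones, whose terminals it couples to each other and to rods. It had 23.8, 9.19 and 8.23 in the Chrnb4 cone line and 11.4, 24.1 and 19.4 in the d4 cone line, against 9.92, 9.78 and 8.88 in b2 1st rods, 11.3, 6.73 and 10.9 in b2 2nd rods and 17.48, 13.4 and 8.26 in b2 single rods. The arrays of both cone lines overlapped those of b2 single, and d4 was not called against the other photoreceptor lines (0.64, SE 0.45, adjusted p = 0.41). Chrnb4 minus b2 1st, both of batch 1, was 0.36 with an SE of 0.55 (adjusted p = 0.79). None of the 6 genes tested was called between these sets, and none had an unadjusted p below 0.05, where 8.14% of all genes were called.

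Ganglion cells carried Gjd2 at intermediate levels. PV had 21.1, 36.8 and 51.7, Drd4 31.7, 24.0 and 13.7, Opn4 24.1, 14.7 and 17.6, and Grik4 15.0, 16.9 and 8.16. The 4 lines overlapped and none was called against the others, with PV at a difference of 0.99 (SE 0.45, adjusted p = 0.15). Microglia had 34.7, 8.93 and 5.65, so that 2 of 3 arrays lay inside the ganglion range of 8.16 to 51.7.

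Gjc1 encodes connexin45, which pairs with connexin36 or with itself in junctions of bipolar, amacrine and ganglion cells. Its signal was highest in Arc, an amacrine line measured in 3 sets. The arrays had 49.4, 50.9 and 52.3 in Arc 1st, 72.8, 83.4 and 57.2 in Arc 2nd, and 34.7, 37.6 and 58.8 in Arc 3rd. Over the 3 sets Arc averaged 53.3, against 10.9 to 32.7 in the other 8 amacrine lines, a difference of 1.76 (SE 0.13, adjusted p = 5.9e-16). In the Arc comparison 1.24% of genes were called.

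The lowest Arc array, at 34.7, lay above all arrays outside the line other than 1 Igfbp2 array. Igfbp2 had 26.9, 39.1 and 33.0 and was 0.96 above the other amacrine lines (SE 0.21, adjusted p = 0.0021), just under the threshold of 1 for a call. Rgs5 followed with 15.4, 27.6 and 18.5. The remaining 6 amacrine lines had means of 10.9 to 15.6, and the arrays of neighbouring lines in that order overlapped. Crh, the lowest of them, had 6.51, 16.7 and 12.01 and a difference of -0.81 (SE 0.21, adjusted p = 0.0012), also under the threshold. Within batch 3, against Arc 3rd, Igfbp2 and Rgs5, the Crh difference was -1.47 (SE 0.23, adjusted p = 2.5e-06 in limma), past the threshold.

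Within batch 1 the earliest Arc set was 1.96 above the other amacrine lines (SE 0.23, adjusted p = 3.2e-09), and within batch 3 the last Arc set was 1.14 above them (SE 0.23, adjusted p = 0.0018). The lines set against Arc differ between these batches, with Igfbp2 and Rgs5 in batch 3. Arc 3rd minus Arc 2nd was -0.73 for Gjc1 and was not called (SE 0.28, adjusted p = 0.85).

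In other classes all line means of Gjc1 were lower than those of Arc and Igfbp2. The means of Grik4, Drd4 and the horizontal line lay above those of all amacrine lines other than Arc, Igfbp2 and Rgs5. The horizontal line had 12.5, 18.8 and 20.2, and ganglion lines had means of 10.99 to 22.2, with Grik4 at 15.0, 33.0 and 22.2. The bipolar lines had means of 8.71 to 10.7 and the photoreceptor lines of 8.03 to 10.04, near the filter of 9.01. The amacrine class as a whole, at 18.05 (SD 0.75 between lines, n = 9), was 0.69 above the mean of the other classes and did not pass the test (SE 0.25, adjusted p = 0.12). Microglia had 6.24, 10.5 and 7.98 and on arrays were 0.79 below the other 21 lines (SE 0.20, adjusted p = 0.0014), under the threshold for a call. On line means the difference of the microglia class was -0.70 and did not pass the test (SE 0.55, adjusted p = 0.59).

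**Figure D2:**
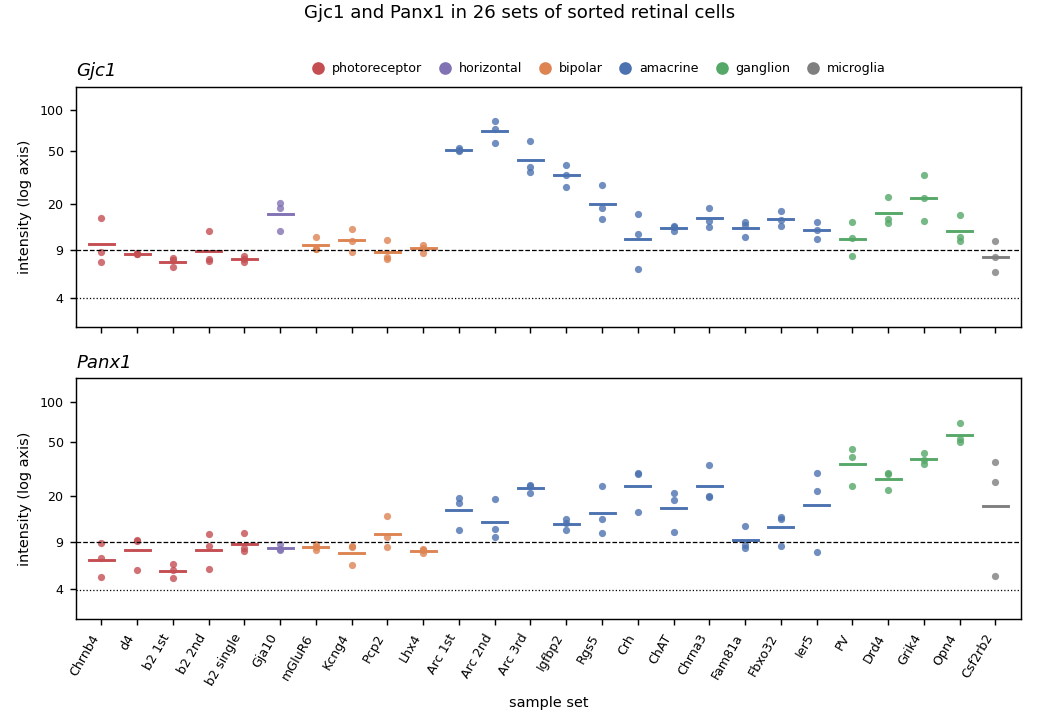
Intensity of Gjc1 (top) and Panx1 (bottom) on each array (points, log axis) and the geometric mean of each set (bars), for the 26 sets coloured by class, with the filter at 9.01 (dashed) and the floor at 3.99 (dotted). Gjc1 is highest in the 3 Arc sets at 34.7 to 83.4, and Panx1 in the 4 ganglion lines at 22.2 to 70.0.

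Gja1 encodes connexin43, the connexin of astrocytes, Müller glia and vessel cells. No set passed a mean of 24.6, and 12 of 26 sets lay above the filter. Drd4, a ganglion line, had 19.3, 28.4 and 27.3 and a mean of 24.6 (SD 0.31, n = 3), and its arrays lay above all arrays of 22 other sets. It was 1.17 above the other ganglion lines (SE 0.35, adjusted p = 0.022), which had means of 8.24 in PV, 10.2 in Opn4 and 15.52 in Grik4. In the Drd4 comparison 6.34% of genes were called. Within batch 3, against Grik4 and Opn4, the difference was 0.97 and did not pass the test (SE 0.38, adjusted p = 0.12), and it did not pass without replicate 2 or without replicate 3 (1.22 and 0.94, adjusted p = 0.11 and 0.17).

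Drd4 and Grik4 also held more signal of glial and vascular markers than the other ganglion lines. The Müller glia list summed to 3459 in Drd4 with 8 of 9 genes above the filter and to 2022 in Grik4 with 9 of 9, against 740 in Opn4 and 497 in PV with 7 of 9 each. The endothelial list summed to 322 in Drd4 and 788 in Grik4, against 81.6 in Opn4 and 63.0 in PV. Cldn5 alone gave 232 of the sum in Drd4 and 681 of that in Grik4. The retinal pigment epithelium list summed to 251 in Drd4 and 946 in Grik4, against 113 in Opn4 and 63.4 in PV. The order of Gja1 over the 4 lines followed that of the Müller list, from Drd4 to Grik4, Opn4 and PV. Outside the ganglion class it did not. The list was highest in Csf2rb2 at 3502, of which Apoe alone gave 3263, and Gja1 averaged 10.6 there. In Crh Glul was 543, Clu 454 and Apoe 385, while Gja1 averaged 7.02. The part of glial and vascular cells in the Gja1 values was not tested.

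Chrna3 was the other line in which Gja1 was called, with 20.8, 10.5 and 23.6 and a mean of 17.3 (SD 0.63), against 6.65 to 9.96 in the other 8 amacrine lines. The difference was 1.14 (SE 0.32, adjusted p = 0.010). It was 0.83 without replicate 3 (adjusted p = 0.20) and 1.36 with batch as a term (adjusted p = 0.056), and passed the test in neither. The Müller list summed to 597 in Chrna3, below its median of 678 over the 26 sets, and the endothelial list to 78.3, near its median of 70.1. The cone list summed to 1053 there. Single arrays were high elsewhere, with 33.3 on replicate 1 of Lhx4 beside 5.93 and 4.77, and 31.4 on replicate 1 of b2 2nd beside 12.3 and 9.30. Gja1 varied more within sets (0.55 on the log2 scale) than between set means (0.49).

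Gjb2 and Gjb6 encode connexin26 and connexin30, connexins of epithelia and astrocytes. The highest set mean was 5.22 for Gjb2, in Chrnb4, and 6.18 for Gjb6, in Crh. Gjb2 was at or below the floor on 27 of the 78 arrays and Gjb6 on 2. Their highest arrays were 7.28 and 7.63. Spread within sets exceeded the spread of set means for both genes, at 0.30 against 0.13 for Gjb2 and 0.21 against 0.15 for Gjb6 on the log2 scale, so no order of sets could be read. No level was detectable above the filter, which does not show that the transcripts are absent.

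Panx1 encodes the pannexin of ATP release, which in the retina is known from ganglion cells. The means of all 4 ganglion lines lay above those of all 18 other lines. Opn4 had 52.7, 70.0 and 50.6, Grik4 34.5, 41.4 and 36.8, PV 38.7, 44.6 and 23.5, and Drd4 22.2, 29.3 and 29.4. The arrays of Opn4 did not overlap those of any other set, while those of Drd4 and PV each lay above all arrays of 16 sets. Both overlapped Crh, at 15.1, 29.2 and 29.7, Chrna3, at 33.9, 19.5 and 19.8, Arc 3rd, Rgs5, Ier5 and Csf2rb2. The ganglion class averaged 37.4 (SD 0.46 between lines, n = 4), against 10.5 for the mean of the other 5 classes, a difference of 1.83 (SE 0.22, adjusted p = 3.1e-05). In the ganglion comparison 3.26% of genes were called higher.

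The difference was 1.72 among lines of batch 3 alone (SE 0.30, adjusted p = 0.017). Among lines of batch 1, where PV is the ganglion line, it was 1.83 and did not pass the test (SE 0.33, adjusted p = 0.11). Between ganglion lines Opn4 was 0.81 above the others, and no line was called. The part of the glial and vascular signal of Drd4 and Grik4 in their Panx1 values was not tested.

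Photoreceptors held the lowest Panx1 of the classes, with the horizontal line next at 8.20. The 3 photoreceptor lines had means of 6.66 to 7.85, all under the filter of 9.01. They averaged 7.24 (SD 0.12 between lines, n = 3), against 14.6 for the mean of the other classes, which includes ganglion lines at 37.4. The difference was -1.01 (SE 0.25, adjusted p = 0.012), at the threshold of 1, and 4.32% of genes were called lower there. It ended as a call in 11 of 33 alternatives. With batch removed the difference was -0.55 (adjusted p = 0.43), among lines of batch 2 alone -0.53 (adjusted p = 0.70), among lines of batch 1 alone -1.50 (adjusted p = 0.052) and without replicate 3 -0.85 (adjusted p = 0.066). The other losses were cyclic loess and the fits without Chrnb4, Pcp2, Crh, Chrna3, Opn4 or Csf2rb2 (-0.999 to -0.954). Bipolar lines, at 8.43, were 0.75 lower and did not pass the test (SE 0.22, adjusted p = 0.057), and their line means of 7.51 to 10.4 overlapped those of the photoreceptor lines.

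Amacrine lines ranged over 9.42 in Fam81a to 23.6 in Crh, between the bipolar and ganglion classes, and averaged 15.48. None was called against the other amacrine lines. Fam81a, the line with the highest Gjd2, had the lowest Panx1 of the class, at 8.15, 8.63 and 11.9 (difference -0.81, SE 0.30, adjusted p = 0.13). In microglia the arrays had 5.05, 25.4 and 35.8 and ranged from photoreceptor to ganglion levels, so no level could be given for that class.

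Panx2 encodes a pannexin of neurons, known from intracellular membranes as well as the cell surface. It was above the filter in all 26 sets and varied least between set means beside the dim Gjb genes (0.44 on the log2 scale, against 0.49 within sets). PV had 56.0, 62.1 and 89.3, the highest mean at 67.7, and its arrays lay above all arrays of 21 other sets. No class was called, with ganglion lines 0.63 above the other classes (SE 0.26, adjusted p = 0.13). Crh, an amacrine line, had 35.8, 3.41 and 26.6 and a mean of 14.8, against 29.2 to 44.9 in the other 8 amacrine lines, a difference of -1.29 (SE 0.30, adjusted p = 0.00047). That call rested on 1 array, below the floor. Without replicate 2 the difference was -0.26 (adjusted p = 0.65). In the Crh comparison 18.3% of genes were called.

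Over the 6 classes, 3 of 36 tests of these genes were called (8.33%), where 4.42% of tests over all genes were. The share includes Gja10 in its own line, set by the driver and the filter, and the other 2 calls were Panx1. Between lines of a class, 7 of 120 were called (5.83%), where 4.21% were over all genes. For the 2 classes held by 1 line, 2 of 12 were called (16.7%), where 10.3% were over all genes. These were again Gja10 in its own line and, in the same line, Gjd2. Shares that include Gja10 are not read as a result about these genes. Between repeated sets of Arc and of b2, none of 36 tests was called, 3 had an unadjusted p below 0.05, and 0.98% of tests over all genes were called. Set means of Gjc1, Gjd2 and Panx1 spread over 3.25, 3.77 and 3.37 on the log2 scale from lowest to highest, wider than Gja1 (2.05) and Panx2 (2.19). For Gjc1 the spread between set means (0.86) exceeded that within sets (0.33), while for Gjd2 it was 0.98 against 0.70.

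**Figure D3:**
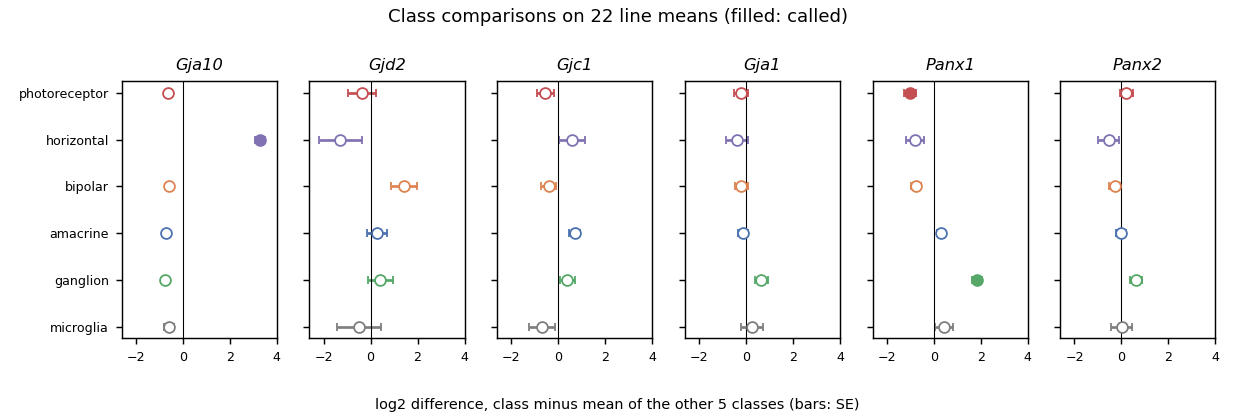
Difference of each class from the mean of the other 5 classes on the log2 scale (horizontal axis), with its standard error, for the 6 genes tested, on 22 line means. Filled points passed the threshold: Gja10 at 3.29 in horizontal cells, whose driver chose that line, Panx1 in ganglion cells at 1.83 and Panx1 in photoreceptors at -1.01.

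**Figure D4:**
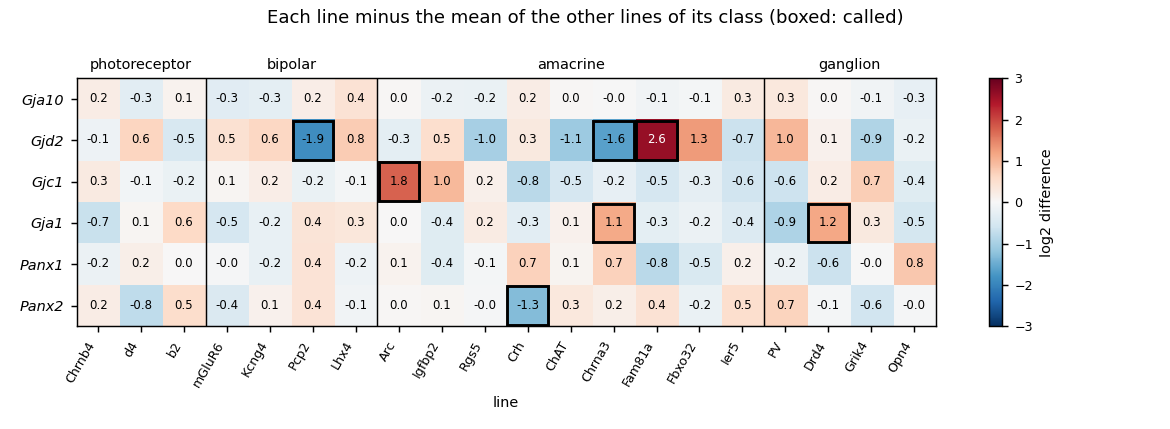
Difference of each line from the averaged remaining lines of that class on the log2 scale (colour and printed value) for the 6 genes tested and 20 lines. Boxes mark the 7 calls, 3 of them in Gjd2 (Fam81a at 2.62, Pcp2 at -1.86 and Chrna3 at -1.62).

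Over the 22 lines, Pearson correlations of log2 line means between the 6 genes tested ran between -0.32 (Gja1 and Gjd2) and 0.50 (Gja1 and Panx1), and the pair of pannexins stood at 0.33. These points share libraries and a normalization and are given as a description.

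For each member tested, the 5 genes with the most alike pattern over the 22 lines were sought by the same measure. For Gjd2 the first was Actc1, the cardiac alpha-actin, at 0.83, and at 0.76 without Fam81a. Actc1 had 398, 431 and 422 in Fam81a, 85.1, 256 and 241 in Kcng4, 77.5, 78.4 and 113 in mGluR6, 216, 52.1 and 48.7 in Fbxo32, and 39.9, 161 and 24.3 in Lhx4. It was 11.5, 23.5 and 8.43 in Pcp2. In Fbxo32 replicate 1 was the highest for both genes, and in Lhx4 replicate 2 was the highest and replicate 3 the lowest for both. In Fam81a, by contrast, Gjd2 was highest on replicate 1, where Actc1 was lowest, and in Pcp2 Gjd2 was lowest on replicate 2, where Actc1 was highest. In RefSeq's annotation of GRCm38.p6, Actc1 is the next protein-coding gene after Gjd2 on chromosome 2. The other 4 genes near Gjd2 were Cenpt, Micalcl, Aig1 and Zg16, at 0.66 to 0.68.

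The genes most like Gja10 were Mtarc1 (0.97), Lhx1 (0.95), Pm20d1, Tecrl and Myzap. Lhx1, a LIM homeobox factor of horizontal cells, had 91.8, 102 and 114 in the Gja10 line, against set means of 4.66 to 8.62 elsewhere. Without the Gja10 line the correlations were -0.09 to 0.25, so this likeness is that of 1 line. For Gjc1 they were Stc1 (0.87), Tfap2b (0.85), Cbln2, Sstr2 and Lrrn3, and without Arc 0.75 to 0.86. Tfap2b, an AP-2 factor of amacrine cells, had means of 309, 288 and 336 in the 3 Arc sets, 326 in Igfbp2 and 204 in Rgs5. For Panx1 they were Rbm43 (0.90), Tmem202, Tnfaip8l1, Txnrd3 and Emb. For Gja1 they were Fxyd1 (0.84), Plaat3, Tff2, Shisal2b and Trhr, all highest in Drd4. For Panx2 they were Clec18a (0.82), Eml2, Lyrm9, Cplx1 and Tprgl.

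Of 15 further connexin and pannexin genes listed, 11 were in the table and 7 were tested, and none was called in a class. In class comparisons their median difference was -0.19 to 0.12, against -0.06 to 0.01 for all genes. Between lines, Gja4, the connexin37 of vessel walls, had 80.8, 146 and 76.9 in Rgs5, a difference of 3.32 from the other amacrine lines (SE 0.31, adjusted p = 4.28e-12), where 0.775% of genes were called. It had 58.7, 153 and 54.5 in Grik4, a difference of 2.61 from the other ganglion lines (SE 0.34, adjusted p = 1.02e-07), where 1.86% of genes were called. In Rgs5 the pericyte and smooth muscle list summed to 201, its highest value, and in Grik4 the endothelial list summed to 788, its highest value. Cldn5 alone gave 681 of that 788. The part of those cells was not tested. In PV Gja4 had 10.1, 5.87 and 8.998 and was lower than in the other ganglion lines (-1.77, adjusted p = 0.00025), where 6.05% of genes were called. The mean that PV was set against includes the high values of Grik4. Gja3 and Gjd3 had arrays at or below the floor in the lines where they stood low, so no difference is given for them. Gjd3 had 27.4, 3.57 and 3.13 in Crh and 3.79, 2.79 and 15.2 in Drd4, and Gja3 had 15.6, 4.19 and 3.79 in Crh. Gja3, Gjb2 and Gjb6 lie side by side on chromosome 14 in the same annotation. Gja3 reached a set mean of 28.5 in b2 2nd, whereas neither neighbour passed the filter.

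Of 9 tested genes for other large-pore channels, 1 was called in ganglion lines, where 3.26% of genes were called higher. Calhm5 was 2.14 higher there (SE 0.49, adjusted p = 0.0094), with 77.8, 52.8 and 26.8 in Grik4, 45.3, 39.1 and 61.8 in Opn4, 23.1, 14.2 and 19.5 in Drd4, and 15.6, 15.47 and 10.3 in PV. PV was itself lower than the other ganglion lines (-1.37, adjusted p = 0.00064). It was also 3.10 higher in ChAT than in the other amacrine lines (SE 0.26, adjusted p = 1.9e-14), at 46.2, 60.6 and 79.3. Calhm6 was higher in microglia (1.14, adjusted p = 0.034).

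Receptors and enzymes for ATP and adenosine, which pannexin channels supply with ligand, were tested for 11 of 15 genes. In microglia 5 were higher, namely P2rx1, P2rx4, P2rx7, P2ry12 and P2ry13, where 5.68% of genes were called higher. P2ry13 was 5.12 higher (SE 0.36, adjusted p = 2.2e-09). All 5 had their highest set mean in Csf2rb2, and how far the filter passed them through that line was not tested. P2ry12 is also in the microglia marker list, so its call is a description. Its set mean was 26.5 in Csf2rb2 and at most 9.24 elsewhere, in Grik4. In photoreceptors P2rx4 (-1.61) and P2ry13 (-1.03) were lower. P2ry13 was also lower in the horizontal (-1.53) and amacrine (-1.19) classes, where 0.159% and 1.23% of genes were called lower. The mean that these classes were set against includes the microglia. In starburst cells P2rx2, an ATP-gated cation channel, had 85.2, 91.8 and 81.2 and was 3.49 above the other amacrine lines (SE 0.13, adjusted p = 1.27e-30), in a comparison with 2.77% of genes called.

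**Figure D5:**
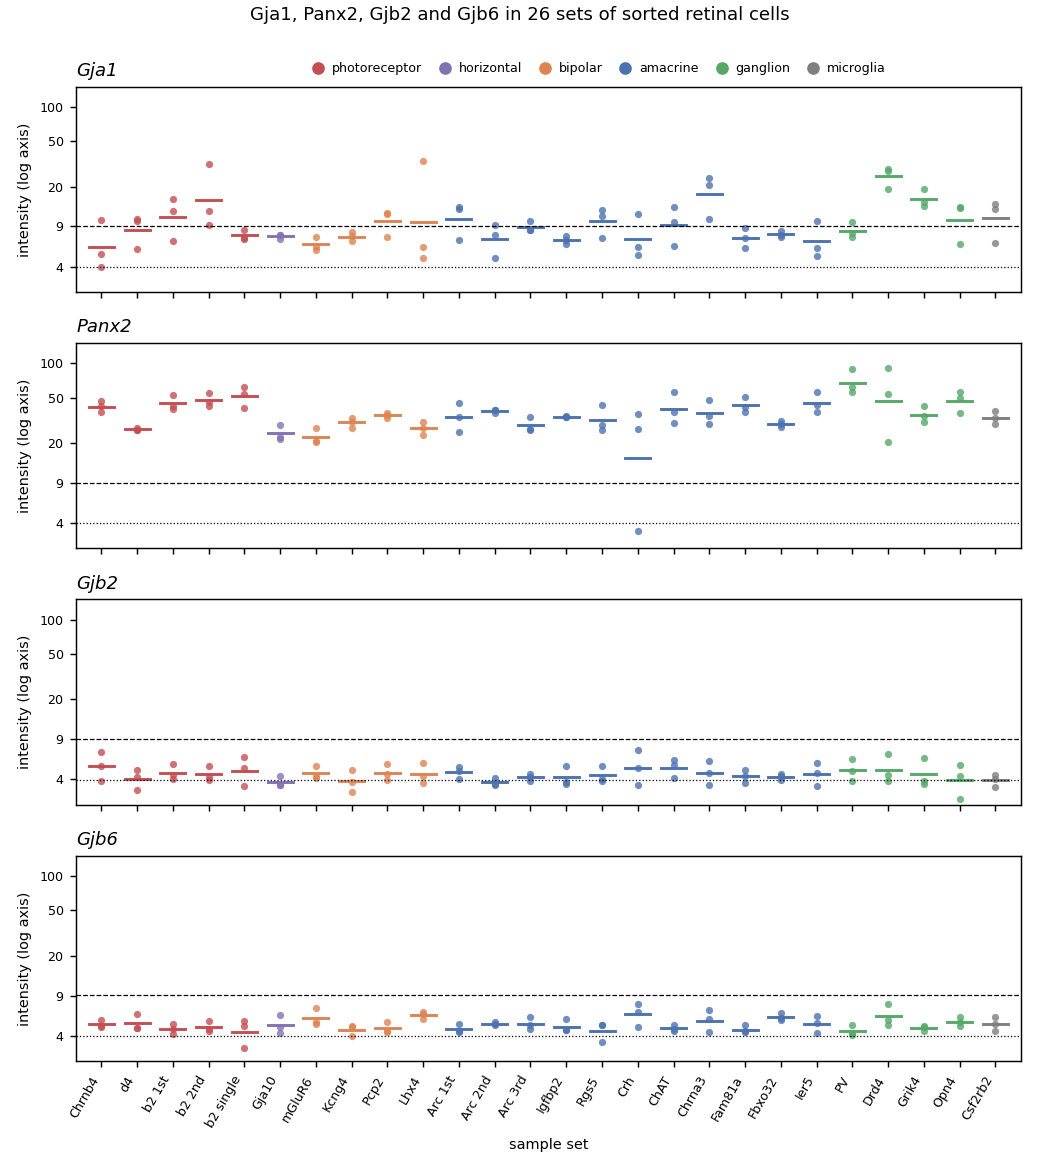
Intensity of Gja1, Panx2, Gjb2 and Gjb6 (top to bottom) on each array (points, log axis) and the geometric mean of each set (bars), for the 26 sets coloured by class, with the filter at 9.01 (dashed) and the floor at 3.99 (dotted). Panx2 lies above the filter in all set means, with 1 Crh array at 3.41, and Gjb2 and Gjb6 lie below it on all arrays.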

How the data were processed

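Biotin-labelled RNA of 200 sorted cells per sample was measured on 78 arrays. The table deposited by the authors holds 1 intensity for each probe set and array. Per the submitters' processing notes, the tools were R 2.11.1, oligo and RMA, with mm9 as the mouse build. The settings are not given in the sources used here. Sorted, the columns are identical (largest difference 0), which quantile normalization produces. Values run over 0.0238 to 5770 on a linear scale. The plan had assumed log2 values, so log2 was taken of them.

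Of 22347 probe sets, 19446 carry 1 gene symbol, 735 several and 2166 are not listed in the probe table. Of several probe sets for a gene the brightest was kept, and each of the 8 genes has 1 probe set. The lowest values of an array stand in order of probe set identifier, and the floor of 3.99 is the level up to which they do so on the array where that run is longest. A value at or below it is 10.5% of an array.

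All tests used limma 3.58.1 under R 4.3.3, with a trend in the prior variance. Classes were compared on 22 line means (for Arc and b2, averages over 3 sets), each class against the other 5, weighted equally. Lines, repeated sets, and Chrnb4 against b2 1st were compared on 78 arrays with a mean for each set. The fit was tested on simulated data. Batch labels cover 8 sets in batch 1, 4 in batch 2 and 11 in batch 3. The d4, Fbxo32 and Arc 2nd sets have none. Fits with batch took Arc 2nd as batch 2 from its number and left out d4 and Fbxo32. Only Arc and b2 lie in more than 1 batch. The number of arrays limits the precision.

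The genes named are the 8 members, part of the called genes of the related lists and, for each member tested, the 5 genes with the highest Pearson correlation of log2 line means raised to the floor. The members and lists were chosen with earlier results of these data known. 1 list of related genes is not reported here. Cell type marker sums are sums of set means. Alternatives are given in the closing section.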

Additional observations from a re-analysis of the deposited data

Results flagged for a closer look

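In 40 groups of lines or arrays, 6 values lay far enough from the others of their group to pass Dixon's criterion. Chance alone passes about 1 in 20 groups.

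Among the 4 bipolar lines, Gjd2 in Pcp2 stood apart at 13.9, with the nearest line at 46.3. Among the 9 amacrine lines, Gja1 in Chrna3 stood apart at 17.3, with the nearest line at 9.96, and Panx2 in Crh at 14.8, with the nearest at 29.2. The Panx2 value rests on 1 array.

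Among the 9 b2 arrays, Gjc1 on replicate 3 of b2 2nd was 12.5, with the nearest array at 8.20, and Gjb6 on replicate 3 of b2 single was 3.11, with the nearest at 4.16. Among the 4 bipolar lines Gjb2 was 3.87 in Kcng4, with the nearest at 4.47. The last 2 values lie below the floor of 3.99, where values have no order.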

How the results depend on the processing

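Of 12 called results, each tried under its alternatives (183 pairs in all), 159 kept their call and 24 lost it, and none changed direction. Gjc1 in Arc and Gjd2 in Fam81a kept their call in all of theirs. So did Gja10 in horizontal cells by both fits (31 and 10 of the 159 pairs). This says nothing of stability, since that gene passed the filter through its own line alone. The number of members called in class comparisons was 0 among lines of batch 1 alone (3 at an unadjusted p below 0.05 in limma) and 0 among lines of batch 2 alone (2 at that level), both chosen after seeing the data, against 3 over all lines. It was 2 to 3 without each replicate number or line in turn. Between lines of a class the number was 7, and it was 4 with batch as a term, of which 3 were among the 7, and 3 without Chrna3, Crh and Drd4, all among the 7. Leaving out replicates gave 4 to 9. For the classes held by 1 line the 2 calls became 1 to 3 without a replicate number in turn. The count stayed at 0 between Chrnb4 and b2 1st and between repeated sets under all alternatives run, with replicates left out included (0 to 0). Replicate numbers did not pair arrays across sets, with a mean residual correlation of 0.000207 for equal numbers and 1.95% of such pairs over 0.1. A replicate block left 7 calls between lines, 2 for classes held by 1 line, 0 between Chrnb4 and b2 1st and 0 between repeated sets. Cyclic loess moved array medians by up to 0.15 on the log2 scale. The cause of lost calls was not tested, beyond fewer lines or arrays in the fits that leave some out. Signal over background limits Gjb2 and Gjb6 in all sets and Gja10 outside its line.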
